A study of Mus musculus with 2 samples.

Results

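The genes described here are 39 immediate early and activity-regulated genes, taken from a list of symbols and followed in the hippocampus of the mouse. All 39 symbols were found, each with 1 gene identifier, among 55450 named genes. They were split by the role of their protein into 20 rapid transcription factors and 19 later effectors. The class names follow this split, and the timing of induction was not measured. Total RNA was sequenced from hippocampal tissue of male mice at 2 months of age, of the strain B6CASTF1/J, a hybrid with a C57BL/6J and a CAST/EiJ parent. The 2 libraries were biological replicate 2 and biological replicate 1 of 1 group, made from 300 ng of RNA each with synthetic ERCC spike-in RNAs added. The labels name the tissue as a layer of hippocampus without saying which layer. The donor label is the same for both libraries, and only the replicate numbers speak for separate animals. No treatment, genotype or stimulus was compared and no p-value was computed. Every ratio below is replicate 2 over replicate 1, a description of these 2 libraries whose spread may be technical.

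Immediate early genes are transcribed within minutes of a stimulus without new protein synthesis, because the factors that drive them, such as CREB and SRF with its partners, are already present in the cell. Calcium entry and MAP kinase signalling switch these factors on in active neurons. Many of the first products are transcription factors, and the effectors act on synapses, on kinase signalling or on the cell cycle. Many of their messenger RNAs are short-lived, and AU-rich words in the 3′ untranslated region are a known signal for rapid decay. In the hippocampus, Fos, Arc, Egr1 and Npas4 are widely used as marks of recently active neurons.

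The promoter stretches of 7 members are shown because they hold the words bound by the resident factors named above. The sequences are from RefSeq on GRCm38.p6, end at the base before an annotated start and read 5′ to 3′ on the strand of the gene. Capitals mark exact matches to TGACGTCA (the full cAMP response element), TGACG or CGTCA (its short form on either strand), the SRF CArG box, TATAAA, and GCGGGGGCG or GCGTGGGCG (the Egr word) on either strand. The Fos stretch is chr12:85473740-85473889 on the plus strand, Nr4a1 chr15:101266606-101266845 on the plus strand, Npas4 chr19:4989972-4990161 on the minus strand and Dusp1 chr17:26508473-26508622 on the minus strand. Btg2 is chr1:134079156-134079330 on the minus strand, Plk2 chr13:110394944-110395043 on the plus strand and Dusp5 chr19:53529045-53529144 on the plus strand.
Fos: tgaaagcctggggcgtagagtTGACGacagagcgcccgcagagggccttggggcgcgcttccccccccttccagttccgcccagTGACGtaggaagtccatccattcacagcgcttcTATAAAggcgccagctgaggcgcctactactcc
Nr4a1: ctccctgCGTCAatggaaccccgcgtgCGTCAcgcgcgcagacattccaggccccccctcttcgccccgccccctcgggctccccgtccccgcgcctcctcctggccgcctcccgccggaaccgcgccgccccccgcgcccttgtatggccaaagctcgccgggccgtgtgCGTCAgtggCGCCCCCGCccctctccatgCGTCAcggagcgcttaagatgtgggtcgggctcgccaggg
Npas4: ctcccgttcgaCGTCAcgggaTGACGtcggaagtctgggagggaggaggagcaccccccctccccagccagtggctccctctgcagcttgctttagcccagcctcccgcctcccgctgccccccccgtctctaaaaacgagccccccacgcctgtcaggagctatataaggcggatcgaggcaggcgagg
Dusp1: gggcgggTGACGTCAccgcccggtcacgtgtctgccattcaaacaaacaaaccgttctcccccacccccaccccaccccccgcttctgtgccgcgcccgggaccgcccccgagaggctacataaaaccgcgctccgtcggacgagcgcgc
Btg2: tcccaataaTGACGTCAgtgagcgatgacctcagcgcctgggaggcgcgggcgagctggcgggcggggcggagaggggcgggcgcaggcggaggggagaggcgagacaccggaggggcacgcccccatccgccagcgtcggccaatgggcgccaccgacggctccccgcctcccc
Plk2: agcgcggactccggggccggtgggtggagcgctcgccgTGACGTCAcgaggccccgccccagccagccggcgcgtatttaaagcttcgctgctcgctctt
Dusp5: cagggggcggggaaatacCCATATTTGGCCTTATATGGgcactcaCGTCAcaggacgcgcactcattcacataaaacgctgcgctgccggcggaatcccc

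Of the 39 members, 29 had a promoter window in the RefSeq table, which runs from 250 bases before to 50 bases after each start. Egr1, Egr3, Dusp4, Klf10, Arc, Fosl1, Ier2, Trib1, Nptx2 and Sik1 were without one. TGACG or CGTCA stood in the windows of 19 of the 29 members (65.5%), against 23.1% of 27025 genes with a window. The 27025 genes were taken whether detected here or not. A gene counted if any of its windows held the word, with 39 windows for the members and 32851 in all. The short form was found in 13 of 16 rapid transcription factors and 6 of 13 later effectors. The full TGACGTCA, which contains both short forms, was found in Btg2, Dusp1, Maff and Plk2, 13.8% of the members with a window against 2.03% of all genes. The Fos stretch holds the short form at positions -129 and -66 and TATAAA at -33, counted back from the start. Nr4a1, with 4 copies of CGTCA, also holds the Egr word at -60.

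The SRF CArG box was found in Dusp5 and Egr2 alone among the members with a window (6.90%, against 1.81% of all genes). In Dusp5 2 such boxes lie end to end. The Egr word was found in Fosb, Fosl2, Klf4, Maff and Nr4a1, which is 5 of 16 rapid transcription factors and 0 of 13 later effectors, against 3.93% of all genes. TATAAA was found in 20.7% of the members with a window and 15.7% of all genes. The member windows were richer in G and C, with a median of 62.3% against 52.7% over all windows. The part of base composition in the shares of these words was not tested. A match describes letters in a window and is not a shown binding site.

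Most members were present at low to moderate levels. Levels are TPM, an abundance per transcript length that can be set against that of another gene, and a gene was called detected at 1 TPM or more in both libraries. On that rule 35 of 39 members were detected, which is 16 of 20 rapid transcription factors and 19 of 19 later effectors. Fosl1, Egr2, Atf3 and Maff were not. Over nuclear protein-coding genes 12689 of 21938 (57.8%) were detected. The median of the members' mean TPM was 7.89, with 9.70 for the rapid transcription factors and 7.59 for the later effectors, the 4 undetected factors included. Over detected genes alone, the median was 19.8 for the 16 rapid transcription factors and 7.59 for the 19 later effectors, against 14.7 for detected protein-coding genes. The median of the detected factors thus stood above 14.7 and that of the effectors below it. With the 4 undetected factors included, the factor median of 9.70 was below it too. The classes overlapped over much of their range. Members together summed to 627.1 TPM in replicate 2 against 597.4 in replicate 1. In bulk tissue, fewer cells that express a gene and less RNA per cell cannot be told apart.

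**Figure D1:**
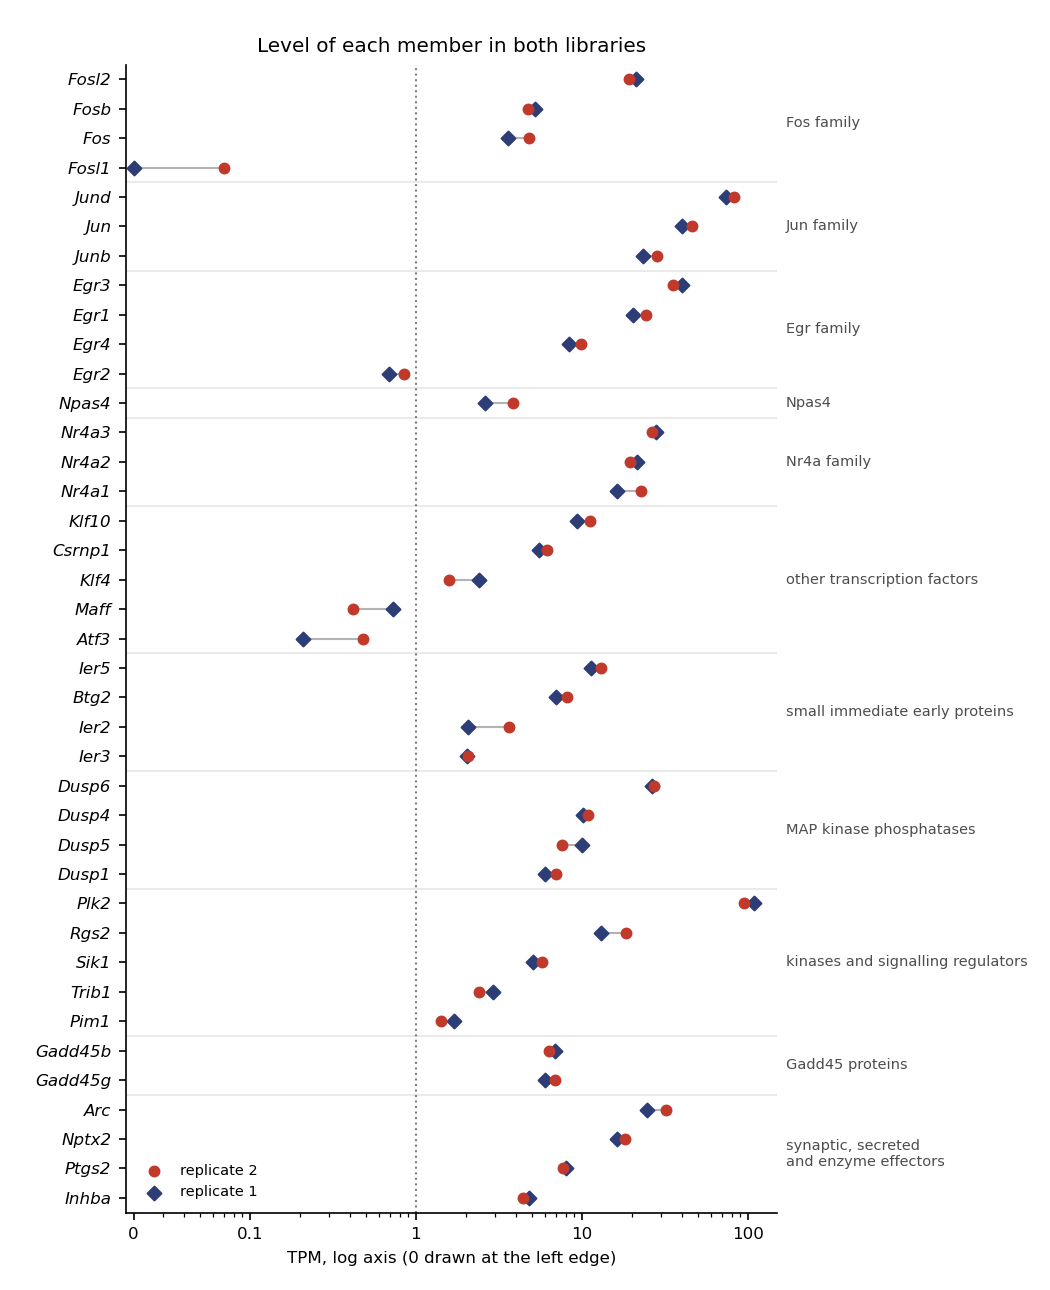
TPM of each of the 39 members in replicate 2 (red circles) and replicate 1 (blue diamonds) on a log axis, grouped by role, with a dotted line at the 1 TPM detection threshold. Plk2, Jund, Jun and Egr3 are at the top, and Fosl1, Egr2, Atf3 and Maff lie below the line.

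The Jun proteins, which pair with Fos proteins to form the AP-1 transcription factor, were the most abundant of the rapid families by median level. Jund had 82.2 TPM in replicate 2 against 73.6 in replicate 1 (77.9 ± 6.12, SD, n = 2). Jun had 46.3 TPM in replicate 2 against 40.2 in replicate 1, and Junb 28.2 TPM in replicate 2 against 23.5 in replicate 1. All 3 Jun genes had the higher value in replicate 2, with ratios of 0.16, 0.20 and 0.26 on the log2 scale for Jund, Jun and Junb. Their 95% counting intervals, computed on counts per library total, lay above 0 in each case. These intervals are exact binomial (Clopper-Pearson) and cover counting error only, not variation between animals.

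The Fos family was lower than its Jun partners and did not share a direction. Fos, at chr12:85473890-85477273 on mm10, had 4.82 TPM in replicate 2 against 3.61 in replicate 1 (4.22 ± 0.856, SD, n = 2), on 198 counts in replicate 2 and 141 in replicate 1. Fosl2, also called Fra-2, was the most abundant member of the family with 19.3 TPM in replicate 2 against 21.2 in replicate 1. Fosb had 4.74 TPM in replicate 2 against 5.23 in replicate 1. Fos was thus the higher in replicate 2 (log2 TPM ratio 0.42), while Fosb (-0.14) and Fosl2 (-0.13) were the lower. The count ratio of Fos was 0.50, with a counting interval of 0.18 to 0.82. Fosl1 (Fra-1) had 3 counts in replicate 2 and 0 in replicate 1, and a count of 0 allows up to 3.

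Fosb has a shortened protein form, ΔFosB, which arises when an intron is removed from within the last exon. This protein is known to accumulate with repeated activity, and only RNA was measured here. A pair of annotated protein-coding transcripts lack this intron of 140 bases, at chr7:19305007-19305146. They held 31.0% of the Fosb TPM in replicate 2 against 28.4% in replicate 1 (29.7 ± 1.82%, SD, n = 2), on 93.8 expected counts in replicate 2 and 87.4 in replicate 1. In the second transcript quantification, made directly from the reads, the share was 29.5% in replicate 2 against 29.1% in replicate 1. The summed share was close in both libraries and both quantifications, although these divided it differently between the 2 transcripts. Fosb-206 held 8.99% of the Fosb TPM in the first quantification and 25.3% in the second, as means of both libraries. Fosb-207, which also lacks an exon that Fosb-206 keeps, held 20.7% in the first and 4.01% in the second. In the second quantification the pair rested on 42.7 counts in replicate 2 and 49.9 in replicate 1. In total RNA, unspliced precursor can add to the transcripts that keep the intron, and it was not separated here.

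The Egr zinc-finger factors spanned a wide range. Egr3 had 35.4 TPM in replicate 2 against 40.2 in replicate 1 (37.8 ± 3.37, SD, n = 2), and Egr1 had 24.3 TPM in replicate 2 against 20.5 in replicate 1. Egr4 had 9.86 TPM in replicate 2 against 8.33 in replicate 1. Egr2, which is known for its role in myelinating Schwann cells, stayed under the threshold with 0.85 TPM in replicate 2 against 0.69 in replicate 1. Egr1 and Egr4 each had a log2 ratio of 0.24, and Egr3 had -0.18. The count ratio of Egr3 was 0.03, so its sign differed between TPM and counts. A short noncoding transcript of Egr3, of 489 bases, was given 5.45 TPM in replicate 2 against 9.91 in replicate 1, on only 49.1 counts in replicate 2 and 86.9 in replicate 1.

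Npas4, a factor that in neurons depends closely on calcium entry, was among the lowest detected factors. At chr19:4984355-4990316 it had 3.87 TPM in replicate 2 against 2.61 in replicate 1 (3.24 ± 0.891, SD, n = 2), on 300 counts in replicate 2 and 211 in replicate 1. Its log2 TPM ratio was 0.57, the highest among the rapid transcription factors with 50 counts in both libraries. Its count ratio was 0.51, with a counting interval of 0.25 to 0.77.

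The orphan nuclear receptors of the Nr4a family stood close together in level. Nr4a3 had 26.6 TPM in replicate 2 against 28.0 in replicate 1, and Nr4a2, known for dopamine neurons, had 19.4 TPM in replicate 2 against 21.4 in replicate 1. Nr4a1 (Nur77) had 22.6 TPM in replicate 2 against 16.2 in replicate 1 (19.4 ± 4.51, SD, n = 2). The log2 TPM ratio of Nr4a1 was 0.48, and its count ratio was 0.49, with a counting interval above 0 (0.36 to 0.62). The intervals of Nr4a2 and Nr4a3, whose TPM ratios were -0.14 and -0.07, held 0.

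The remaining rapid factors ran from Klf10, near the middle of the members in level, down to those that were not detected. The zinc-finger factor Klf10 had 11.2 TPM in replicate 2 against 9.39 in replicate 1, and Csrnp1, a cysteine- and serine-rich nuclear protein, had 6.19 TPM in replicate 2 against 5.56 in replicate 1. Klf4, a factor of stem cells and vessels, had 1.58 TPM in replicate 2 against 2.4 in replicate 1. Klf4 had the lowest ratio of the members with 50 counts, at -0.60, but its count ratio was -0.36 with an interval of -0.74 to 0.01. Atf3, a stress-induced factor, had 0.48 TPM in replicate 2 against 0.21 in replicate 1. Maff, a small Maf protein, had 0.42 TPM in replicate 2 against 0.73 in replicate 1. Both rested on at most 30 counts a library.

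Among the later effectors, the kinase Plk2, which acts on synaptic strength, was the most abundant of all 39 members. It had 95.2 TPM in replicate 2 against 109.2 in replicate 1 (102.2 ± 9.87, SD, n = 2). Its range did not overlap that of Jund, the next in order, nor did those of Jund, Jun and Egr3 overlap their neighbours. Jun and Egr3 were barely apart, with the lower Jun value at 40.21 TPM and the higher Egr3 value at 40.18. In coding transcripts alone, Egr3 had 16.5 TPM in replicate 2 against 19.2 in replicate 1, below Arc with 31.98 and 24.7. The coding share of Egr3 was larger in the second quantification. From Arc down to Rgs2, the ranges of neighbours in the order overlapped. Rgs2, which shortens G-protein signalling, had 18.4 TPM in replicate 2 against 13.1 in replicate 1. Sik1, a salt-inducible kinase that restrains CREB coactivators, had 5.8 TPM in replicate 2 against 5.06 in replicate 1. The pseudokinase Trib1 had 2.42 TPM in replicate 2 against 2.91 in replicate 1, and the kinase Pim1 had 1.43 TPM in replicate 2 against 1.71 in replicate 1. Rgs2 and Sik1 were thus the higher in replicate 2, and Plk2, Trib1 and Pim1 the lower.

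Arc, a capsid-like protein that regulates glutamate receptors at synapses, led the synaptic and secreted effectors. At chr15:74669083-74672570 it had 31.98 TPM in replicate 2 against 24.7 in replicate 1 (28.4 ± 5.12, SD, n = 2), on 2184 counts in replicate 2 and 1644 in replicate 1. Its log2 TPM ratio was 0.37, and its count ratio was 0.42, with a counting interval of 0.32 to 0.51. Nptx2, a secreted pentraxin of excitatory synapses, had 18.3 TPM in replicate 2 against 16.3 in replicate 1. Arc and Nptx2 were both the higher in replicate 2. Ptgs2, the inducible cyclooxygenase, had 7.71 TPM in replicate 2 against 8.06 in replicate 1, and Inhba, which encodes a subunit of activin, had 4.41 TPM in replicate 2 against 4.81 in replicate 1. The counting intervals of Ptgs2 and Inhba held 0.

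The MAP kinase phosphatases, which switch off the kinases that induce many of these genes, were led by Dusp6. Dusp6, an ERK phosphatase of the cytoplasm, had 27.2 TPM in replicate 2 against 26.4 in replicate 1. Dusp4, a nuclear phosphatase, had 10.95 TPM in replicate 2 against 10.15 in replicate 1, and Dusp1, also nuclear, had 7.01 TPM in replicate 2 against 6.05 in replicate 1. Dusp5, a nuclear ERK phosphatase, had 7.6 TPM in replicate 2 against 9.97 in replicate 1 (8.79 ± 1.68, SD, n = 2). Dusp5 went against the other 3, with a log2 TPM ratio of -0.39 beside 0.21 for Dusp1, 0.11 for Dusp4 and 0.04 for Dusp6. The count ratio of Dusp5 was -0.35, with a counting interval of -0.53 to -0.16.

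The small immediate early proteins were led by Ier5, a regulator of heat shock factor, with 13.1 TPM in replicate 2 against 11.5 in replicate 1. Btg2, which limits cell division, had 8.17 TPM in replicate 2 against 7.01 in replicate 1. Ier2 had 3.65 TPM in replicate 2 against 2.06 in replicate 1 (2.86 ± 1.12, SD, n = 2), on 120 counts in replicate 2 and 66 in replicate 1. This was the highest TPM ratio of all members with 50 counts, 1.77-fold or 0.83 on the log2 scale. The count ratio of Ier2 was 0.87, with a counting interval of 0.42 to 1.32. Ier3, a stress-inducible regulator of cell survival, had 2.06 TPM in replicate 2 against 2.03 in replicate 1. The stress proteins Gadd45g and Gadd45b stood side by side. Gadd45g had 6.91 TPM in replicate 2 against 6.01 in replicate 1, and Gadd45b had 6.38 TPM in replicate 2 against 6.92 in replicate 1.

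Of the 39 members, 34 had at least 50 expected counts in both libraries and were used for the summary of ratios. Fosl1, Egr2, Atf3, Maff and Ier3 did not. The median log2 ratio of the 34 was 0.16, with 21 above 0 and 13 below. Over all 13910 genes with that many counts, the median was -0.04 and 36.9% were above 0. The rapid transcription factors had a median of 0.18 (10 of 16 above 0) and the later effectors 0.14 (11 of 18), so both classes leaned the same way by similar amounts. Kinases and signalling regulators had a median of -0.20, the lowest of the roles in the first quantification, and -0.04 in the second, where the Fos family was lower at -0.06. The higher values in replicate 2 were spread over members of both classes and were not shared by all of them.

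A call was made where TPM in one library exceeded that in the other by at least 25%. It was reached by 8 of the 34 members, where 10.2% of all genes reached it. Of these, 6 were higher in replicate 2 (background 3.32%), namely Ier2, Npas4, Rgs2, Nr4a1, Fos and Arc. Klf4 and Dusp5 were lower there (background 6.92%). The background depended on the scaling. With TMM-scaled counts, 51.2% of all genes were above 0, and 5.28% were past 25%, made up of 2.67% higher and 2.62% lower in replicate 2. The same 8 members were past it on that scale, each in the same direction. In the second quantification 6 of 34 members were past 25%, against 11.95% of all genes. Ratios of low counts scatter more widely, so the number past 25% in the first quantification was also counted by expression. At a mean count of 50 to 200, it was 3 of 6 members against 26.6% of genes. At 200 to 1000 counts, it was 4 of 17 against 9.37%, and at 1000 to 10000 counts, 1 of 11 (Arc) against 2.21%. The counting interval lay wholly above 0 for 16 members (9.56% of all genes) and wholly below 0 for Fosl2, Dusp5 and Plk2 (10.8%). At 1.5-fold the members past it were Klf4 and Ier2 (1.77% of all genes), and no member reached 2-fold (0.273%).

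**Figure D2:**
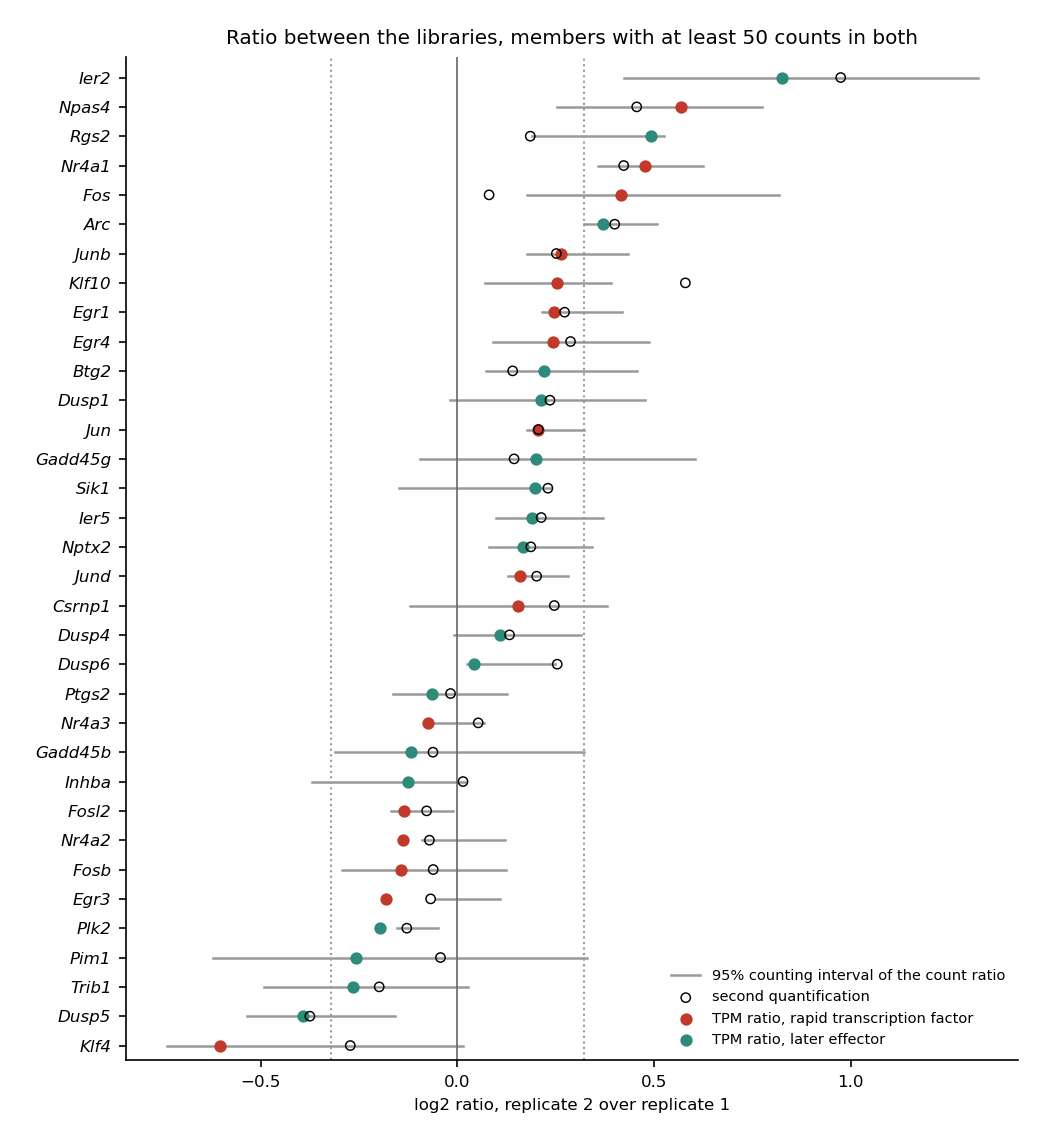
Log2 ratio of replicate 2 over replicate 1 for the 34 members with at least 50 counts in both libraries, ordered by TPM ratio, with rapid transcription factors in red and later effectors in green. Grey lines are 95% counting intervals of the count ratio, open circles the second quantification, and dotted lines mark 25% either way. Of the members, 21 lie right of 0 and 13 left of it.

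The ratios were also set side by side under 6 ways of scaling the libraries or counting the reads, among them TMM factors, spike-ins and the second quantification. The 6 are not independent, as the ratios on the TMM, DESeq2 and spike-in scales are the same count ratio moved by constants. TPM rescaled to nuclear protein-coding genes likewise moves the main TPM ratio by a constant. Over these 6, 20 members were above 0 in each and 8 were below 0 in each, while Egr3, Nr4a2, Nr4a3, Sik1, Gadd45b and Inhba had both signs. The shares of all genes that keep a sign, or pass 25%, in each of the 6 were not computed. Npas4, Nr4a1, Ier2, Arc and Dusp5 were past 25% in the same direction in each of the 6. Fos was not. Its log2 ratio was 0.08 in the second quantification, with 7.17 TPM in replicate 2 against 6.78 in replicate 1. Rgs2 had 0.19 and Klf4 -0.27 there, and Klf10 had 0.58.

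Other genes of the same pathway were close to level between the libraries. Of 14 upstream calcium and kinase signalling genes, 14 were detected with a median log2 ratio of 0.01. They were led by Camk2a, a calcium-dependent kinase, with 1371 TPM in replicate 2 against 1503 in replicate 1, and by Ppp3ca, a calcineurin subunit, with 559.0 TPM in replicate 2 against 546.8 in replicate 1. Rps6ka1, an RSK kinase, was the 1 gene of the list past 25%, with 5.14 TPM in replicate 2 against 3.52 in replicate 1. All 18 resident transcription factors and coactivators were detected, with a median ratio of -0.07 and 0 past 25%. They were led by Mef2d, a MADS-box factor, with 85.1 TPM in replicate 2 against 83.8 in replicate 1, and Crtc1, a CREB coactivator, with 72.5 TPM in replicate 2 against 84.6 in replicate 1. Of 25 other activity-regulated genes, 23 were detected with a median of -0.03 and again 0 past 25%. Their highest were the neuropeptides Cck, with 295.1 TPM in replicate 2 against 271.4 in replicate 1, and Sst, with 167.8 TPM in replicate 2 against 160.9 in replicate 1.

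The tissue label was borne by its markers, with 6 of 6 dentate granule cell, 5 of 5 CA1 and 6 of 6 CA3 markers detected. Other features of the libraries differed beside these ratios. The dentate markers summed to 244.5 TPM in replicate 2 against 229.1 in replicate 1, with 5 of 6 higher in replicate 2. The 6 oligodendrocyte markers summed to 902.8 TPM in replicate 2 against 1005 in replicate 1. Choroid plexus markers, with 2 of 6 detected, summed to 28.6 TPM in replicate 2 against 15.3 in replicate 1. Most of this sum was Ttr, with 23.1 TPM in replicate 2 against 10.6 in replicate 1. Kl, the other detected marker, had 3.96 TPM in replicate 2 against 4.04 in replicate 1, and the rest were under 1 TPM. Glutamatergic neuron markers had a median log2 ratio of -0.03, nuclear long noncoding RNAs -0.32 with 0 of 6 above 0, heat shock genes -0.11 with 1 of 7 above 0 and red blood cell markers 0.17 with 5 of 5 above 0. Of the leukocyte markers 0 of 6 were detected and 3 were at 0 in both libraries. The part of any of these in the member ratios was not tested. Expected counts on named genes totalled 31127473 in replicate 2 and 31251534 in replicate 1, so depth was nearly equal.

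The members were mostly assigned to coding transcripts. Of the 35 detected members, 10 had a single annotated transcript (28.6%, against 9.36% of detected protein-coding genes). For 22 of the other 25, the same transcript led in both libraries and both quantifications. Egr3, Nr4a1 and Rgs2 were the exceptions. At least 90% of the TPM lay in protein-coding transcripts for 22 of 35 members (62.9%, against 48.2% of detected protein-coding genes). A retained-intron share of at least 10% was seen in 7 members (20%, against 31.6%).

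Some members carried a large noncoding share. Retained-intron transcripts held 32.7% of the TPM of Egr3, 28.9% of Npas4, 25.6% of Sik1 and 19.5% of Dusp1, as means of both libraries. Fosl2 held 14.9% in such transcripts, and 30.8% in the second quantification. The share of Npas4 rested on 1 such transcript and was far apart between the libraries, with 17.1% in replicate 2 against 40.6% in replicate 1 (SD 16.6), and its mean was 18.9% in the second quantification. The share of Egr3 was 37.9% in replicate 2 against 27.5% in replicate 1, and its mean was 20.45% in the second quantification. The larger of the 2 such transcripts of Sik1 held 26.7% in replicate 2 against 13.4% in replicate 1. In total RNA such reads can include unspliced precursor, which was not separated here. Rgs2 held 40.2% in a transcript annotated as a target of nonsense-mediated decay, and 50.5% in the second quantification. Egr3 was 47.2% coding in the first quantification and 79.5% in the second, so its shares depended on the quantification.

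**Figure D3:**
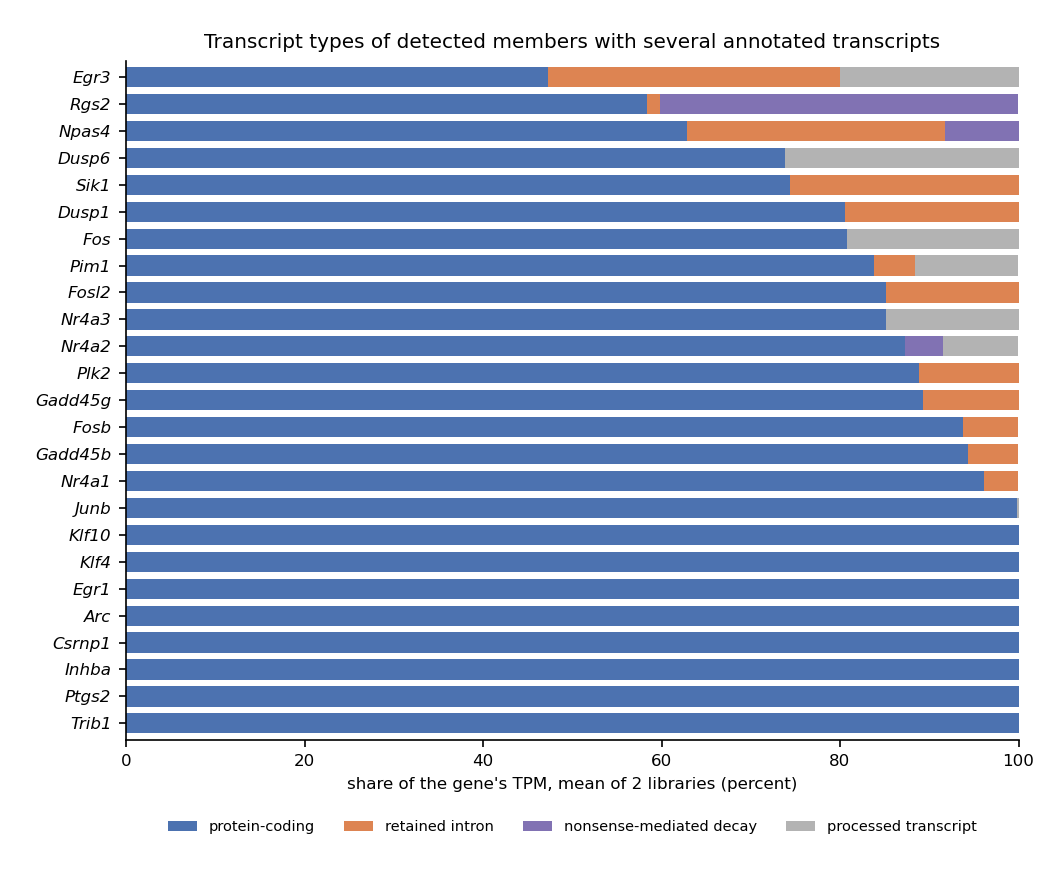
Share of each gene's TPM by annotated transcript type, in percent and as the mean of 2 libraries, for the 25 detected members with several annotated transcripts. Egr3, Rgs2 and Npas4 at the top have the smallest coding shares.

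The members were mostly short genes. Their median span was 5.96 kb, against 26.0 kb over 12668 detected protein-coding genes, and 26 of 39 (66.7%) were under 10 kb, against 23.1%. The median number of exons in the leading coding transcript was 4, against 9. Jun, Junb, Jund, Ier2 and Ier5 had 1 exon (12.8%, against 3% of genes). Rapid transcription factors and later effectors had median spans of 7.04 kb and 5.36 kb.

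**Figure D4:**
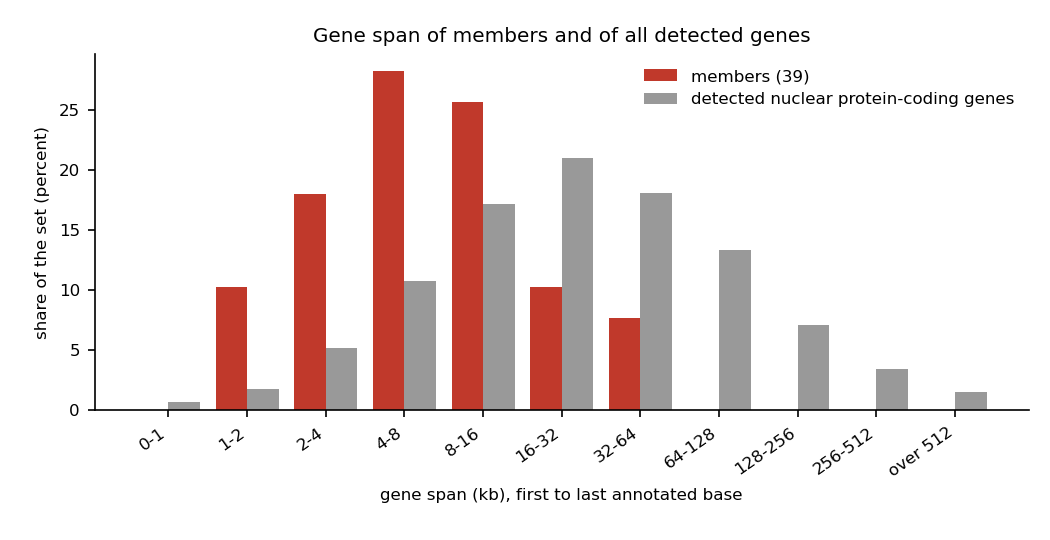
Percent of the 39 members (red) and of detected nuclear protein-coding genes (grey) in each bin of gene span in kb. Most members lie in the bins below 16 kb, and no member exceeds 64 kb.

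The word ATTTA, the core of AU-rich decay signals, was found in the 3′ untranslated region of 33 of 39 members (84.6%), against 66.1% of 12400 detected protein-coding genes with such a region. Its median density was 1.88 per kb in members and 1.33 per kb in all genes. The rapid transcription factors held it in 19 of 20 and the later effectors in 14 of 19. Arc, Ier2, Gadd45b, Gadd45g, Trib1 and Egr4 had none, so the word was not common to all members. The longer TTATTTATT was found in 9 members (23.1%), against 7.38% of genes. The median region was 1188 bases in members and 988.5 bases in all genes. A stretch of 29 bases around the longer word is shown for 5 of the 9, to show it in its setting, with the word in capitals. The letters are from the GENCODE M21 transcripts on mm10, 5′ to 3′ on the strand of the gene. The stretches lie at chr12:85477103-85477131 (Fos, plus strand), chr17:26506159-26506187 (Dusp1, minus strand), chr1:150105790-150105818 (Ptgs2, plus strand), chr17:29495689-29495717 (Pim1, plus strand) and chr13:110400734-110400762 (Plk2, plus strand).
Fos: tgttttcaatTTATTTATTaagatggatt
Dusp1: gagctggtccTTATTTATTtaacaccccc
Ptgs2: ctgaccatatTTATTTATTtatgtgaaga
Pim1: tttaatgtatTTATTTATTtatttatttg
Plk2: aataaactttTTATTTATTacagccccaa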

How the data were processed

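Total RNA of 2 libraries of 1 group was analysed. Each library had 1 gene table and 2 transcript tables. By the deposited text listings, the gene table and the first transcript table rest on reads aligned to the transcriptome and the second transcript table on the reads themselves, on mm10 with GENCODE M21. Per the file headers, the layouts are those of RSEM and kallisto. Program versions were not given in the sources used here, nor was the strand setting, so reads of overlapping genes could be shared. The deposited expected count is the authors' estimate of reads per gene, and the deposited TPM is abundance per length scaled to a fixed sum, spike-ins and short RNAs included. Reads of both parental haplotypes were mapped to the C57BL/6J reference, and the effect of this was not measured.

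From these, TPM means and SDs, log2 TPM ratios, and exact binomial (Clopper-Pearson) 95% intervals of ratios of rounded expected counts were computed with Python 3.11.15, pandas 2.3.3 and scipy 1.17.1. TMM factors came from edgeR 4.0.16 and size factors from DESeq2 1.42.0 under R 4.3.3, used for scaling only. Members were named with both values where detected at 1 TPM in both libraries or at least 25% apart, and pathway genes where they were the 2 highest of a list or that far apart. Members under the threshold were named too. The members and lists were chosen with earlier results of these data known. With 1 group there was nothing to test. Alternatives covered scaling, count minimum, pseudocount, detection and fold thresholds, the second quantification and single libraries.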

Additional observations from a re-analysis of the deposited data

How the results depend on the processing

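The median member ratio stayed above 0 under each of the 10 other settings tried, and no member past 25% turned its sign under the scalings and quantifications tried. Of the members short of 25%, 6 turned sign under at least 1 of them, with lowest and highest log2 ratios of -0.18 and 0.03 for Egr3, -0.14 and 0.02 for Nr4a2, -0.07 and 0.05 for Nr4a3, -0.01 and 0.23 for Sik1, -0.12 and 0.01 for Gadd45b, and -0.23 and 0.01 for Inhba. On protein-coding transcripts alone, an alternative added after the data were seen, Sik1 had -0.06. There, 9 of 34 members were past 25%, against 10.1% of all genes. The number of members past 25% was 8 of 34 (10.2% of all genes), and 6 of 34 in the second quantification (11.95%). It was 5 of 28 at a count minimum of 200 (5.28%). At higher fold thresholds it was 2 of 34 at 1.5-fold (1.77%) and 0 of 34 at 2-fold (0.273%). Levels depended on the quantification and its scale. The median member level of 7.89 TPM was 12.3 in the second quantification and 18.9 after rescaling to nuclear protein-coding genes, and 7.71 to 8.06 in single libraries. The rapid transcription factors, at 9.70, had 16.04 and 23.3 in those settings, 19.8 over detected members only, and 8.86 to 10.5 in single libraries. The later effectors, at 7.59, had 11.2 and 18.3, and 7.01 to 7.6 in single libraries. The mean coding share of 90.9% was 91.2% in the second quantification and 90.9% in either library alone. The cause of these shifts was not tested. Ratios need both libraries, so they could not be recomputed without either. No paired analysis was possible because there was only 1 group. With n = 2, an SD is poorly known, and members under 200 counts carry wide counting intervals.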

Other observations

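A pair of members lie near each other on chromosome 8, Ier2 and Junb, with a gap of 311.6 kb, and had log2 ratios of 0.83 and 0.26. Npas4 and Fosl1 lie on chromosome 19 with a gap of 457.2 kb. No other pair of members lay within 500 kb. The effectors Inhba and Ptgs2 held the most copies of ATTTA in their 3′ untranslated regions, at 21 and 14, with levels of 4.61 ± 0.283 and 7.89 ± 0.248 TPM (SD, n = 2). These regions were 4492 and 2445 bases long. Per kb they held 4.675 and 5.726 copies, and Ier3 had the highest density of the members at 8.157. Sik1 had 67.8% of its TPM in coding transcripts in replicate 2, against 81.1% in replicate 1.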
